A study of Mus musculus with 28 samples.

Results

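The NIH3T3 K-ras line, called K-ras below, was compared with the NIH3T3 line after 72 h in medium with 25 mM glucose. NIH3T3 is an immortalised line of mouse embryo fibroblasts, and the K-ras line is named for a RAS gene. The arrays were chosen by title alone, which gave 2 arrays of K-ras at 25 mM and 72 h and 2 of NIH3T3 at 25 mM and 72 h, 4 of the 28 arrays of the series. All were labelled biological replicates, and both lines were kept in the same serum-containing medium with glutamine. The other 24 arrays held the same lines at 0, 24 and 48 h at 25 mM and at 24, 48 and 72 h at 1 mM glucose, also 2 per group. The allele, the promoter that drives it, and whether the K-ras cells were a clone or a pool are not given in the sources read here. Each kind of cell was represented by 1 line, so a difference between them cannot be credited to K-ras itself, and the replicates are cultures of these lines. In RNA from whole cultures, fewer cells that use a gene and less RNA of it per cell cannot be told apart.

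RAS proteins are membrane switches that, when bound to GTP, activate the kinases RAF, MEK and ERK. ERK then phosphorylates transcription factors, and within hours cells make more mRNA of AP-1 and ETS factors, of growth factors, and of phosphatases and adaptors that act back on the pathway as inhibitors. Fibroblasts that carry an active RAS gene typically keep dividing where normal fibroblasts stop at contact or when growth factors run low. The question asked here is which genes separated the lines after 72 h in high glucose, late in the culture.

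Each deposited value is a log2 ratio of a probe set to its own median over the 28 arrays, so a value of 1 means a signal of 2 times that median. Differences between arrays can be read from such ratios, but the level of a gene, and with it whether a gene is absent, cannot. Log2 fold changes below are K-ras minus NIH3T3 and are given with their standard error from limma, a linear model fitted over all 28 arrays and 18193 genes. A gene was called when its p, adjusted over all genes by Benjamini-Hochberg, was under 0.05. Arrays are written in the order replicate 1, replicate 2.

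Arrays were grouped by correlation over the 500 genes of largest SD. None of the 4 arrays compared lay with the other line, while 6 of the other 24 did. Those 6 enter the spread that limma shares between groups. Replicate 1 of K-ras stood apart from the rest: its bioC hybridisation control, a spiked-in bacterial transcript, read 2.94, against -0.14 in replicate 2 of K-ras and -2.12 and -1.27 in the NIH3T3 arrays. Its interquartile range over genes was 0.654, against 0.283 in replicate 2 of K-ras and 0.344 and 0.329 in the NIH3T3 arrays. The 2 K-ras arrays correlated over all genes at r = 0.235, and the 2 NIH3T3 arrays at r = 0.878. Over all groups of the series, arrays out of place included, the median replicate r was 0.271, with a range of -0.534 to 0.878. The K-ras values had the wider spread, with a median SD over called genes of 0.368 in K-ras and 0.164 in NIH3T3. Replicates lay over 1 log2 unit apart in 30 of the 132 called genes in K-ras and in 1 in NIH3T3. At 25 mM every K-ras array had a higher bioC value than every NIH3T3 array, so this split and the line cannot be told apart. Ratios of 3' to 5' Gapdh control probe sets, a measure of RNA integrity, overlapped between the lines at -0.13 and 0.06 in K-ras and 0.08 and -0.04 in NIH3T3.

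The lines differed in 132 of 18193 genes, 0.726% of those tested. Of these, 56 were higher in K-ras (0.308%) and 76 were lower (0.418%), while 3929 genes had an unadjusted p under 0.05. At least a 4-fold difference, 2 log2 units, was seen in 24 of the higher and 33 of the lower genes. In all 132 genes both K-ras arrays lay on one side of both NIH3T3 arrays. That alone is common here, since K-ras lay above NIH3T3 without overlap in 25.5% of all genes and below it in 24% of all genes. The evidence for single calls is limited, as 114 of the 132 adjusted p-values lay above 0.03. The calls numbered 2 without replicate 1 of K-ras, without replicate 1 of NIH3T3 or without replicate 2 of NIH3T3, and 3014 without replicate 2 of K-ras. They numbered 1618 without the 6 arrays out of place, with all 132 genes among them. Quantile normalisation left 5 calls, with 4 higher and 1 lower, and the bioC split as a block left 1. Within a group, that split occurs only in NIH3T3 at 1 mM and 48 or 72 h. The 48 h pair holds an array with the K-ras profile, so the block takes up line difference. Its results cannot separate the line from the split.

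**Figure D1:**
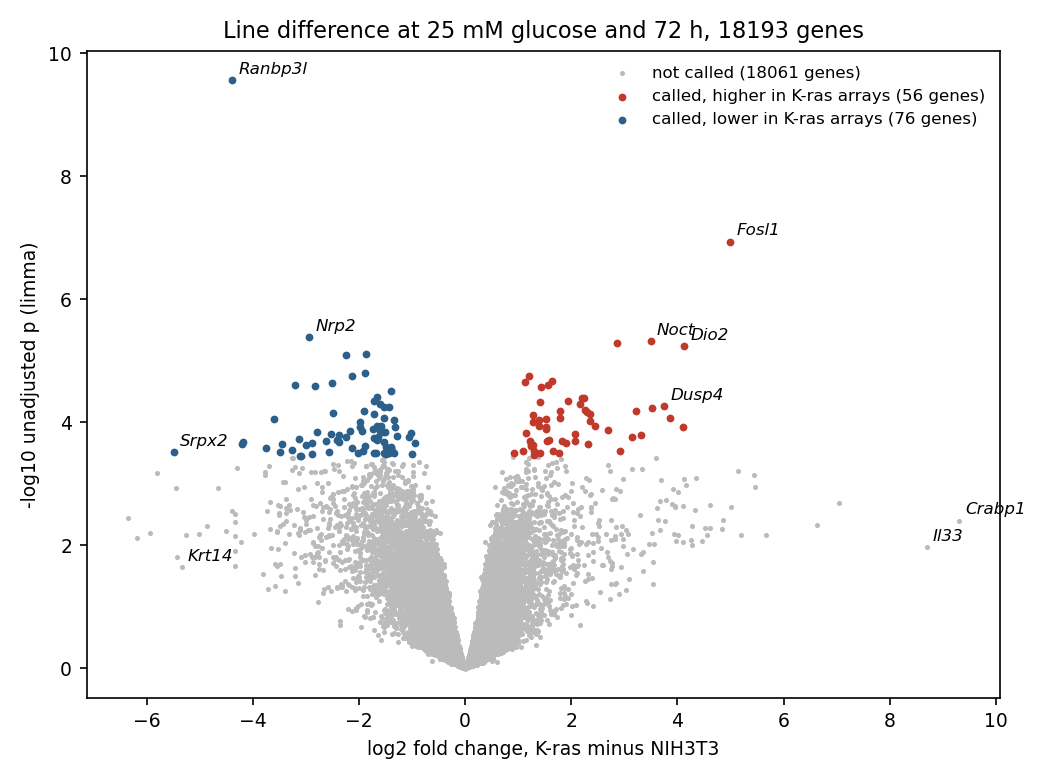
Each point is one of 18193 genes, with the log2 fold change (K-ras minus NIH3T3, 25 mM glucose, 72 h) on the horizontal axis and -log10 of the unadjusted limma p on the vertical axis. Red points are the 56 genes called higher in K-ras, blue points the 76 called lower and grey points the genes not called. Fosl1 and Ranbp3l lie far above the other genes, and Crabp1 and Il33, the largest differences, are not called.

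Transcription factors induced by ERK were, over all 4 arrays, the gene group with the largest median difference of the 39 pathway lists. Their median log2 fold change was 1.20 over 22 measured genes, against 0.03 over all 18193 genes. Without replicate 1 of K-ras it was 1.22, and the DNA replication and mitosis lists lay above it at 1.32 and 1.29. Of the 22 factors, 3 were called higher and 0 lower, against 0.308% and 0.418% of all genes. Fosl1, an AP-1 factor whose transcription follows ERK activity, stood at 0.30 and 0.39 in K-ras, against -4.79 and -4.50 in NIH3T3. This is a 31.8-fold difference (log2 fold change 4.99 ± 0.57, adjusted p = 0.00105), the largest among the genes called higher, and both of its probe sets were called. Etv5, an ETS factor of the PEA3 group, stood at 1.77 and 0.34 in K-ras, against -1.66 and -2.07 in NIH3T3 (2.92 ± 0.64, adjusted p = 0.0459), with the K-ras arrays more than 1 log2 unit apart. Maff, a small MAF factor, stood at 0.62 and 0.21 in K-ras, against -1.87 and -1.63 in NIH3T3 (2.17 ± 0.40, adjusted p = 0.0337). For all 3 genes the gap between the lines was wider than the gap between replicates. Members that did not pass were Egr3, a zinc finger factor of the early growth response (3.95 ± 1.11, adjusted p = 0.0828), Etv4, a relative of Etv5 (2.18 ± 0.61, adjusted p = 0.0824), and Fosl2, another AP-1 factor (1.44 ± 0.37, adjusted p = 0.0701). Myc stood at -0.90 and 0.21 in K-ras, against -1.72 and -1.56 in NIH3T3 (1.30 ± 0.59, adjusted p = 0.215).

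Feedback inhibitors of MAP kinase signalling had 4 of 20 measured members called higher and 0 lower, against 0.308% and 0.418% of all genes, with a median of 0.87. Dusp4, a nuclear phosphatase that removes phosphate from MAP kinases, stood at 0.95 and 0.86 in K-ras, against -3.01 and -2.69 in NIH3T3 (3.76 ± 0.70, adjusted p = 0.0339). Dusp6, the cytoplasmic phosphatase that prefers ERK, stood at 0.07 and 0.25 in K-ras, against -1.76 and -1.78 in NIH3T3 (1.94 ± 0.36, adjusted p = 0.0337). Errfi1, an adaptor that binds and inhibits the EGF receptor kinase, stood at 1.16 and 0.62 in K-ras, against -1.03 and -1.32 in NIH3T3 (2.06 ± 0.43, adjusted p = 0.0399). In each of these 3 genes the replicates of a line lay close together and the lines lay far apart. Dusp10, a phosphatase that prefers the stress kinases p38 and JNK, stood at 0.48 and 0.75 in K-ras, against -0.47 and -1.33 in NIH3T3 (1.51 ± 0.30, adjusted p = 0.0355). The group did not move as one. Dusp1, a phosphatase of the immediate-early response, stood at -2.67 and -1.89 in K-ras, against 1.35 and 1.15 in NIH3T3, without passing the test (-3.53 ± 0.98, adjusted p = 0.0806). Dusp5, a nuclear ERK phosphatase, had 1.88 ± 0.44 (adjusted p = 0.0556), and the Sprouty inhibitors Spry4 and Spry2 had 1.83 ± 0.72 (adjusted p = 0.16) and 0.84 ± 0.43 (adjusted p = 0.267). The list's median was 0.42 when the first listed probe set stood for each gene.

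A factor such as AP-1 can act through short motifs near a start site, and sites farther away were not searched. Shown are the promoters of 4 of the genes called above and of Srpx2 and Ranbp3l, which had the largest falls among called genes. Each is a RefSeq window on GRCm38.p6 from 250 bases before to 50 bases after an annotated start site, on the plus strand. Capitals mark a match to 1 of 4 motifs searched on both strands, AP-1 (TGANTCA), the cyclic AMP response element or CRE (TGACGTC), a forkhead motif (TGTTTAC) and the E-box (CACGTG). Dusp6 lies at chr10:99262981-99263280, Maff at chr15:79347270-79347569 (1 of 3 windows), Dusp10 at chr1:184034131-184034430, Errfi1 at chr4:150854820-150855119 (1 of 2 windows), Srpx2 at chrX:133908175-133908474 and Ranbp3l at chr15:8967699-8967998.
Dusp6: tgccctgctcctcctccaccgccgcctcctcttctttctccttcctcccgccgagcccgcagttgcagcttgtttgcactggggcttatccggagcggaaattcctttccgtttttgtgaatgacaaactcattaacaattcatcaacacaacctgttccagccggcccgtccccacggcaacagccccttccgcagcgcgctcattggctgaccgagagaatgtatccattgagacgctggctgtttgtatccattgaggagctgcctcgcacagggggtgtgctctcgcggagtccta
Maff: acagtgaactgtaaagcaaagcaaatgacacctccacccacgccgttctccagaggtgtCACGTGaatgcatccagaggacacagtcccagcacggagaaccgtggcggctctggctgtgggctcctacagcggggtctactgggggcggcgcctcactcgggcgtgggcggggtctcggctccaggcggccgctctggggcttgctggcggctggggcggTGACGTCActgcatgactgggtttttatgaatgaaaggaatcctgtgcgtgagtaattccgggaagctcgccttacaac
Dusp10: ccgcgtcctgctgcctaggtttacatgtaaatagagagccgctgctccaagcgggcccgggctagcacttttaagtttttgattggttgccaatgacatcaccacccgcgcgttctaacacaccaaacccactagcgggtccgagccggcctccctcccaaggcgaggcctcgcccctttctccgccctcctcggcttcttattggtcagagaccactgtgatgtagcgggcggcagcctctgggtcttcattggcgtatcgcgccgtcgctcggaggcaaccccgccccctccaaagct
Errfi1: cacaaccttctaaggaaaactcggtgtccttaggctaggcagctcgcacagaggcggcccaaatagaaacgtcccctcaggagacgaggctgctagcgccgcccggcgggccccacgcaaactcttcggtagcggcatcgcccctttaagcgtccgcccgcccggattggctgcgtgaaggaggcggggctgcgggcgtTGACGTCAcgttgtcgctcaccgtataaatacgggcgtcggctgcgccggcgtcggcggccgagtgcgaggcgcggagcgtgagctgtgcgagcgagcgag
Srpx2: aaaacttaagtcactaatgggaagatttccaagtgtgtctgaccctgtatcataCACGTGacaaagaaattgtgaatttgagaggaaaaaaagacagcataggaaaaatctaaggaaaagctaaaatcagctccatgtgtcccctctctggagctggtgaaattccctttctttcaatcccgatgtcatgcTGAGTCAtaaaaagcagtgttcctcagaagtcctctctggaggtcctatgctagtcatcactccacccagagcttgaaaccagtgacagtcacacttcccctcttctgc
Ranbp3l: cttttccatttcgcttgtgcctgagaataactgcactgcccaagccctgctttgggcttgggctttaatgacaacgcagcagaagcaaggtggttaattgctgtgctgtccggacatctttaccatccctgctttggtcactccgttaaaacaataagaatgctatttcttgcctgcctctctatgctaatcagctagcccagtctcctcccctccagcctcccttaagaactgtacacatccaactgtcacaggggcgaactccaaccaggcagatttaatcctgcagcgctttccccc
Maff and Errfi1 hold a palindromic CRE, which matches on both strands, from -29 in Maff and from -51 in Errfi1 relative to the start site, and Srpx2, which was lower in K-ras, holds the only AP-1 match of the 6 windows. Of the 132 called genes, 107 had at least 1 window. Fosl1, Dusp4 and Phlda1 had none, so their promoters were not searched. The AP-1 motif was found in 6 of 55 windows of genes called higher (10.9%) and 2 of 85 windows of genes called lower (2.35%), against 6.38% of the 18109 windows of all measured genes. The CRE was found in 9.09% and 8.24%, against 4.31% of all windows, and the E-box in 16.4% and 11.8%, against 8.72%. The forkhead motif was found in 3.64% and 3.53%, against 2.98%. These shares describe letters in the windows and carry no test.

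Among EGF receptor ligands and the list of ERK-induced secreted and signalling genes, Ereg and Phlda1 were called, while ERK activity was not measured. Ereg, epiregulin, a ligand of the EGF receptor, stood at -0.31 and 0.11 in K-ras, against -3.32 and -3.52 in NIH3T3 (3.32 ± 0.69, adjusted p = 0.0408). Phlda1, an ERK-induced protein with a pleckstrin homology domain, stood at 0.19 and 0.33 in K-ras, against -2.75 and -3.19 in NIH3T3 (3.22 ± 0.61, adjusted p = 0.0341). In both genes the K-ras arrays stayed near the gene's median over the series and the NIH3T3 arrays lay far below it. Ereg was 1 of 9 measured EGF receptor ligands and receptors called, with a list median of -0.10. Phlda1 was 1 of 19 in the secreted and signalling list, with a median of 0.56. Of all genes 0.726% were called, so 1 call says little about either list. The median of the secreted and signalling list was 0.19 with the bioC block and 0.98 among genes with an SD above the median. Without passing, another ligand, Hbegf, had 2.76 ± 0.92 (adjusted p = 0.115), the urokinase receptor Plaur 1.49 ± 0.55 (adjusted p = 0.14) and the chromatin protein Hmga2 3.62 ± 1.02 (adjusted p = 0.0831). The EGF receptor itself, Egfr, stood at -0.73 and 0.14 in K-ras, against 1.75 and 1.78 in NIH3T3 (-2.06 ± 0.64, adjusted p = 0.0998). Ccnd1, cyclin D1, stood at 0.80 and -1.10 in K-ras, against -1.40 and -1.35 in NIH3T3, and did not pass (1.23 ± 0.99, adjusted p = 0.505).

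The core kinases and switches of the pathway were read next. None of 19 measured members of the RAS-RAF-MEK-ERK core list was called, against 0.726% of all genes, and their median was -0.13. At that share, 0 or 1 calls in a list of this size, here or below, say little about the list. Nras stood at -0.75 and 0.26 in K-ras, against -0.10 and 0.08 in NIH3T3 (-0.23 ± 0.32, adjusted p = 0.722). Map2k1, which encodes MEK1, had 0.91 ± 0.41 (adjusted p = 0.204) and Braf -1.73 ± 0.71 (adjusted p = 0.17).

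**Figure D2:**
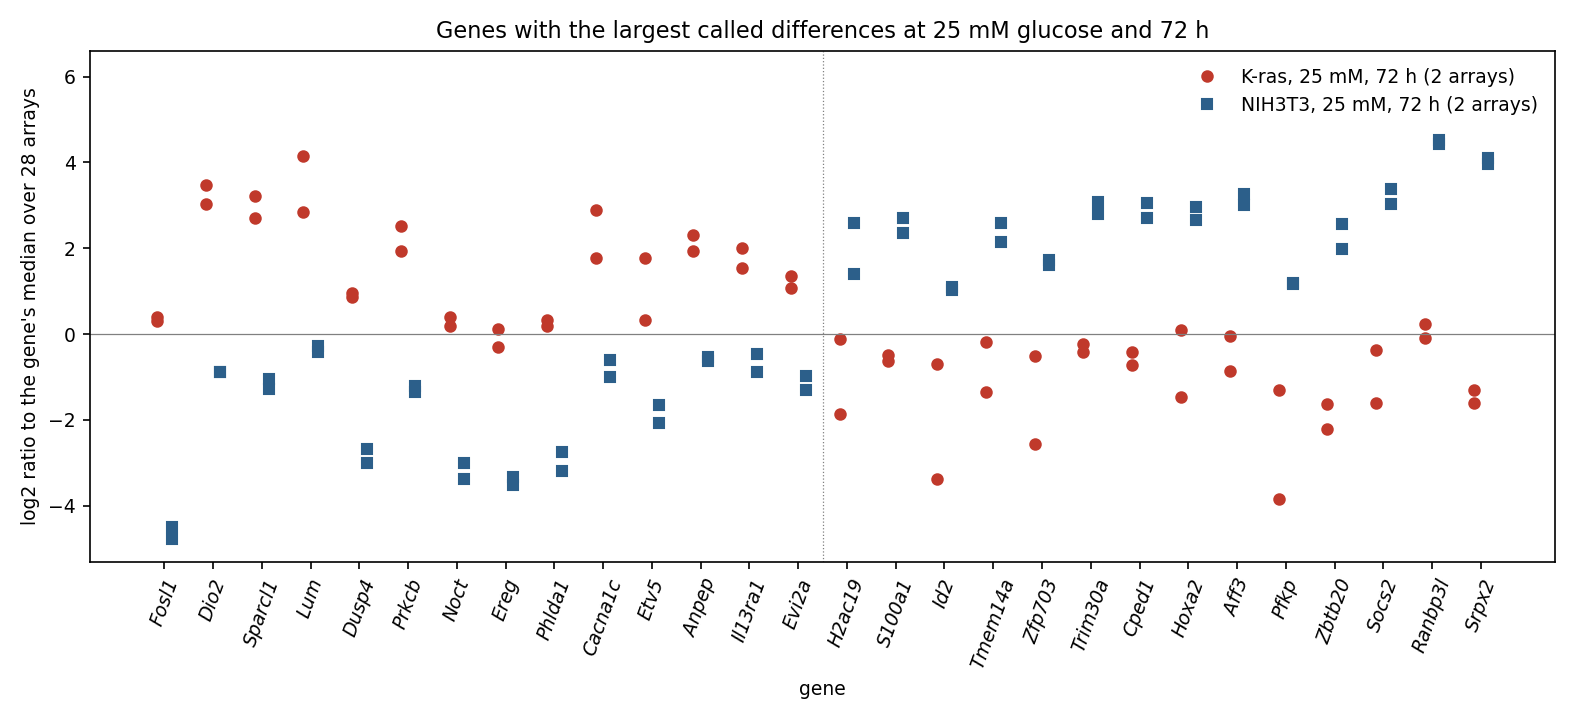
Log2 ratio to the gene's median over 28 arrays (vertical axis) for the genes with the largest called differences (horizontal axis), with red circles for the 2 K-ras arrays and blue squares for the 2 NIH3T3 arrays at 25 mM glucose and 72 h. Genes left of the dotted line were called higher in K-ras and those right of it lower. The 2 circles lie over 1 log2 unit apart in 10 of the 28 genes shown, among them Lum, Etv5, Id2, Hoxa2, Pfkp and Socs2, and the 2 squares in 1 gene, H2ac19.

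Beyond the ERK lists, several genes of the extracellular matrix and of hormone and lipid handling were higher in K-ras. Lum, lumican, a small proteoglycan of collagen fibrils, stood at 4.16 and 2.84 in K-ras, against -0.29 and -0.43 in NIH3T3 (3.86 ± 0.75, adjusted p = 0.0355). Sparcl1, a matricellular relative of SPARC, stood at 3.21 and 2.70 in K-ras, against -1.05 and -1.27 in NIH3T3 (4.11 ± 0.83, adjusted p = 0.0381). Dio2, the deiodinase that activates thyroid hormone, stood at 3.47 and 3.03 in K-ras, against -0.88 and -0.88 in NIH3T3 (4.13 ± 0.64, adjusted p = 0.0178). In all 3 genes both K-ras arrays lay more than 2 log2 units above the series median and both NIH3T3 arrays below it. Thra, a receptor for the hormone that Dio2 activates, ran the other way at 0.16 and -0.15 in K-ras, against 2.05 and 1.92 in NIH3T3 (-1.97 ± 0.39, adjusted p = 0.0355). Other probe sets of the same genes reached -0.05 for Dio2 and -0.06 for Thra. Among lipid-related genes, Rbp2, a retinol-binding protein (1.76 ± 0.39), Abcd2, a peroxisomal fatty acid transporter (1.63 ± 0.28), and Cyp11a1, the enzyme that starts steroid hormone synthesis (1.56 ± 0.27), were higher. Hsd17b11, a dehydrogenase of lipid droplets (-1.88 ± 0.32), Ephx1, the microsomal epoxide hydrolase (-2.79 ± 0.57), and Slc22a5, a carnitine transporter (-1.39 ± 0.30), were lower.

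Other genes called higher in K-ras encode a kinase, ion channels, receptor subunits and enzymes. Prkcb, protein kinase C beta, stood at 2.52 and 1.95 in K-ras, against -1.35 and -1.22 in NIH3T3 (3.52 ± 0.66, adjusted p = 0.0339), and was the 1 called member of 26 in the protein kinase C and calcium list. Cacna1c, the pore subunit of an L-type calcium channel, was higher too (3.14 ± 0.66, adjusted p = 0.0409). The potassium channels Kcnk2 (2.35 ± 0.45, adjusted p = 0.0341) and Kcnn4, which opens on calcium (2.06 ± 0.44, adjusted p = 0.0421), were higher too. Il13ra1, a receptor subunit for interleukin 13 (2.45 ± 0.49, adjusted p = 0.0381), and Il1rap, the accessory protein of the interleukin 1 receptor (1.78 ± 0.35, adjusted p = 0.0355), were also called. For Il13ra1, 4 of its 5 probe sets were called. Anpep, the membrane aminopeptidase N, stood at 2.30 and 1.94 in K-ras, against -0.63 and -0.54 in NIH3T3 (2.70 ± 0.55, adjusted p = 0.0395). Noct, nocturnin, a phosphatase with a daily rhythm in many tissues, stood at 0.40 and 0.19 in K-ras, against -3.39 and -3.02 in NIH3T3 (3.50 ± 0.53, adjusted p = 0.0178).

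Smaller called differences included several proteins of growth and ribosome assembly. Ruvbl1 and Ruvbl2, partner ATPases of chromatin remodelling and protein assembly complexes, had 1.40 ± 0.27 (adjusted p = 0.0355) and 1.52 ± 0.31 (adjusted p = 0.0381). Ruvbl1 stood at 0.29 and 0.25 in K-ras, against -1.01 and -1.24 in NIH3T3, and Ruvbl2 at -0.17 and 0.28 in K-ras, against -1.47 and -1.47 in NIH3T3. Grwd1 (1.78 ± 0.34) and Rrp15 (1.15 ± 0.24), which act in the assembly of ribosomes, Srm, spermidine synthase (1.25 ± 0.27), Trmt61a, a tRNA methyltransferase (1.29 ± 0.28), and the nucleoporin Nup188 (1.13 ± 0.20) were higher. Their adjusted p lay between 0.0272 and 0.0459. Haptoglobin, Hp, which binds free haemoglobin (2.32 ± 0.50), and Cdo1, which oxidises cysteine to a sulphinic acid (2.29 ± 0.44), were higher as well.

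The largest called fall was in Srpx2, a secreted sushi-repeat protein, at -1.31 and -1.62 in K-ras, against 4.11 and 3.95 in NIH3T3 (-5.49 ± 1.22, adjusted p = 0.0459). The clearest was in Ranbp3l, a Ran-binding protein that exports SMAD proteins of the BMP pathway from the nucleus. It stood at -0.10 and 0.24 in K-ras, against 4.51 and 4.42 in NIH3T3 (-4.40 ± 0.34, adjusted p = 5.02e-06), a 21.1-fold difference with the replicates of each line close together. Socs2, an inhibitor of cytokine and growth hormone signalling, stood at -0.37 and -1.62 in K-ras, against 3.38 and 3.04 in NIH3T3 (-4.20 ± 0.90, adjusted p = 0.0422). It was the 1 called member of 22 in the JAK-STAT and SOCS list, against 0.726% of all genes. Nrp2, neuropilin 2, a co-receptor for semaphorins and VEGF, stood at -1.29 and -0.76 in K-ras, against 1.92 and 1.90 in NIH3T3 (-2.94 ± 0.44, adjusted p = 0.0178). All 4 of its probe sets were called, with log2 fold changes between -2.94 and -1.60. Lrig3, a membrane protein with leucine-rich repeats (-2.84 ± 0.50, adjusted p = 0.0272), and the ephrin receptor Ephb3 (-1.01 ± 0.22, adjusted p = 0.0459) were lower as well.

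Several transcriptional regulators were lower in K-ras. Zbtb20, a zinc finger repressor, stood at -2.20 and -1.64 in K-ras, against 2.55 and 1.99 in NIH3T3 (-4.19 ± 0.89, adjusted p = 0.0421), and its 9 probe sets had log2 fold changes between -4.19 and -2.36. Id2, which binds and blocks basic helix-loop-helix factors, stood at -3.38 and -0.70 in K-ras, against 1.10 and 1.03 in NIH3T3 (-3.11 ± 0.70, adjusted p = 0.0489). Replicate 1 of K-ras was far lower than replicate 2 in Id2. Hoxa2, a homeobox factor of the anterior body axis, stood at -1.46 and 0.09 in K-ras, against 2.66 and 2.95 in NIH3T3 (-3.49 ± 0.77, adjusted p = 0.0459). It was the 1 called member of 32 measured genes in the Hox list, against 0.726% of all genes, and the list's median was -0.13. Hoxb3 had -1.78 ± 0.41 (adjusted p = 0.0556) and Hoxa5 -1.43 ± 0.34 (adjusted p = 0.0563). Aff3 (-3.59 ± 0.70), Zfp703 (-3.21 ± 0.56), Gli3, a factor of the hedgehog pathway (-1.53 ± 0.30), and Tef, a clock output factor (-1.54 ± 0.32), were called lower. So were Ezh1, a methyltransferase of histone H3 in the Polycomb system (-1.98 ± 0.40), and Phf1, a cofactor of the same system (-1.59 ± 0.32).

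Calcium-binding and metabolic genes were also among the genes lower in K-ras. S100b stood at 0.20 and 0.00 in K-ras, against 3.01 and 2.45 in NIH3T3 (-2.63 ± 0.56, adjusted p = 0.0421), and S100a1 at -0.50 and -0.62 in K-ras, against 2.36 and 2.70 in NIH3T3 (-3.09 ± 0.70, adjusted p = 0.0494). Both encode small EF-hand proteins. Pfkp, the platelet isoform of phosphofructokinase, stood at -3.84 and -1.32 in K-ras, against 1.17 and 1.18 in NIH3T3 (-3.75 ± 0.82, adjusted p = 0.0453). It was the 1 called member of 22 measured genes of glycolysis and sugar transport, against 0.726% of all genes, and the list's median was 0.41. That median was 0.25 without replicate 1 of K-ras, 0.27 without replicate 2, 0.10 with the bioC block and 0.15 among genes with an SD above the median. Eef2k, the kinase that inhibits elongation factor 2 (-2.13 ± 0.36, adjusted p = 0.0272), Castor1, an arginine sensor upstream of mTORC1 (-1.67 ± 0.37, adjusted p = 0.0459), and Uvrag, which takes part in autophagy (-2.89 ± 0.62, adjusted p = 0.0422), were lower. Uvrag stood at -3.10 and -0.16 in K-ras, against 1.31 and 1.21 in NIH3T3, so replicate 1 of K-ras supplied most of its distance. Bid, a BCL2 family member that promotes apoptosis (-1.88 ± 0.41, adjusted p = 0.0436), and Man2b1, a lysosomal mannosidase (-1.72 ± 0.38, adjusted p = 0.0459), were lower too. Neither Uvrag nor Man2b1 is in the lysosome and autophagy list. Trim30a, an interferon-inducible TRIM protein, stood at -0.24 and -0.42 in K-ras, against 3.08 and 2.80 in NIH3T3 (-3.27 ± 0.72, adjusted p = 0.0459). Clone symbols made up 4 further calls and are not named.

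The DNA replication and mitosis lists lay higher in K-ras without a called gene. In the DNA replication list, 35 of 41 members had a positive log2 fold change and the median was 0.84, and in the mitosis list 36 of 38 were positive with a median of 0.81. Both K-ras arrays lay above both NIH3T3 arrays in 26 of the 41 and in 26 of the 38, against 25.5% of all genes. The array medians of the DNA replication list were -0.83 and 0.07 in K-ras, against -1.34 and -1.30 in NIH3T3. Replicate 1 of K-ras, which stood apart in bioC, thus lay nearer to NIH3T3 than replicate 2 did, and the list's median was 1.32 without it and 0.37 without replicate 2. The mitosis list's median was 1.29 and 0.35 in the same order, and 0.54 with the mean of probe sets. With the bioC split as a block, which also takes up line difference, both medians turned to -0.27 and -0.53. Among single members, Rfc5, a clamp loader subunit, had 1.70 ± 0.69 (adjusted p = 0.17), Pola1, a polymerase subunit, 1.66 ± 0.56 (adjusted p = 0.114), and the mitotic kinase Aurka 1.68 ± 1.02 (adjusted p = 0.361).

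Ribosome biogenesis and nucleotide synthesis lay higher in the same way, again with 0 called genes in either list. The nucleolus list had 26 of 30 members positive and a median of 0.47, with Nop56, a core protein of box C/D particles, at 1.25 ± 0.36 (adjusted p = 0.0864). The purine and pyrimidine list had 19 of 24 positive and a median of 0.70, with Hprt, a purine salvage enzyme, at 1.20 ± 0.27 (adjusted p = 0.0502) and Pfas, a purine synthesis enzyme, at 1.14 ± 0.27 (adjusted p = 0.0563). The nucleolus median was 0.79 without replicate 1 of K-ras, and the purine and pyrimidine median 0.41 without replicate 2 and 0.11 with the bioC block.

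The quiescence, lysosome, p53, interferon and collagen lists lay lower. Of 25 quiescence and FOXO target genes, 5 were positive and the median was -0.74, and both K-ras arrays lay below both NIH3T3 arrays in 16, against 24% of all genes. Foxo1, a transcription factor held out of the nucleus by growth factor signalling, stood at -0.36 and 0.34 in K-ras, against 1.79 and 1.77 in NIH3T3 (-1.79 ± 0.49, adjusted p = 0.0769). Of 36 lysosome and autophagy genes, 6 were positive and the median was -0.45, with Lamp1, a lysosomal membrane protein, at -1.36 ± 0.31 (adjusted p = 0.0556). For p53 targets the median was -0.67 and 13 of 21 lay lower without overlap, and for interferon genes it was -0.52 with 17 of 31. Collagens and fibrous matrix had a median of -0.57 with 16 of 31 lower without overlap. Elastin, Eln, stood at -0.97 and -0.22 in K-ras, against 3.60 and 3.80 in NIH3T3 (-4.30 ± 1.01, adjusted p = 0.0563). None of the members of these 5 lists was called. The quiescence median was -0.26 with the bioC block, -0.43 with the mean of probe sets and -1.14 without replicate 1 of K-ras. The lysosome median was -0.30 after quantile normalisation and -0.70 without replicate 2 of K-ras. The p53 median was -0.30 with the bioC block, the mean of probe sets or the first probe set, and -0.40 without replicate 1 of K-ras. The interferon median was -0.31 with the bioC block, -0.30 with the mean of probe sets, -0.34 after quantile normalisation and -0.90 among genes with an SD above the median. The collagen median was -0.04 with the bioC block, -0.30 without replicate 2 of K-ras or replicate 1 of NIH3T3, -0.89 among genes with an SD above the median and -0.90 without replicate 2 of NIH3T3.

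**Figure D3:**
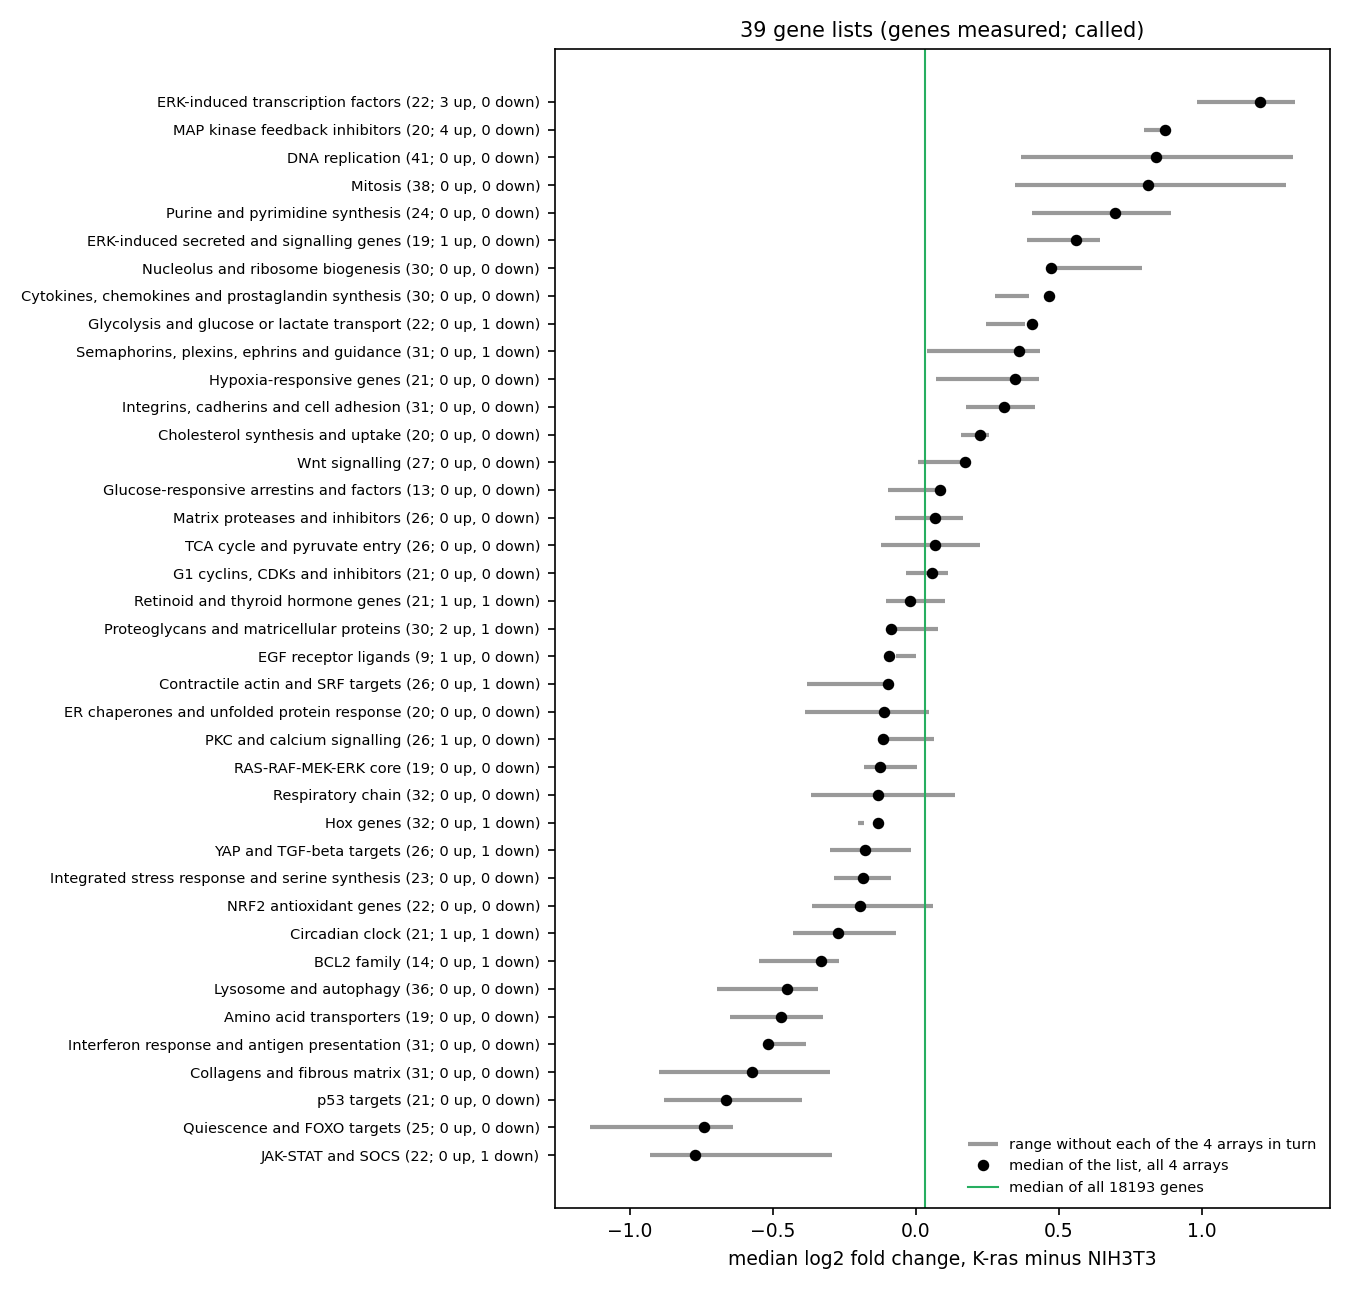
Median log2 fold change (K-ras minus NIH3T3, 25 mM glucose, 72 h; horizontal axis) of 39 gene lists, with the number of genes measured and called beside each name. Black points are medians over all 4 arrays, grey bars span the medians when each of the 4 arrays was left out in turn, and the green line is the median of all 18193 genes at 0.03. The lists of ERK-induced transcription factors (1.20) and feedback inhibitors (0.87) lead over all 4 arrays, and the bars of DNA replication and mitosis are wider than theirs.

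Matrix lists moved in both directions. Among 30 proteoglycans and matricellular proteins, 2 were higher (Lum and Sparcl1) and 1 lower (Srpx2), with a median of -0.09. Further members with large differences that did not pass were Thbs2, an inhibitor of vessel growth (5.00 ± 1.40, adjusted p = 0.0824), and Has2, the hyaluronan synthase (4.11 ± 1.15, adjusted p = 0.0824). Sugar-responsive genes also failed the test. Txnip, an arrestin that restrains glucose uptake, stood at 1.20 and 0.30 in K-ras, against 3.51 and 3.50 in NIH3T3 (-2.76 ± 1.08, adjusted p = 0.156), and its relative Arrdc4 had -1.87 ± 0.54 (adjusted p = 0.0875). Of 32 respiratory chain genes and 26 genes of the TCA cycle, 0 were called, against 0.726% of all genes, with medians of -0.13 and 0.07.

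Markers of the cell type and of other cell types were read for the whole lists, against 0.726% of all genes called. Of 15 fibroblast markers, 1 was called higher (Lum), and the list medians per array were 0.70 and 0.43 in K-ras, against 0.49 and 0.39 in NIH3T3. Of 12 skeletal muscle markers, 1 was called higher, Myh1, a fast myosin heavy chain (1.91 ± 0.41, adjusted p = 0.0422), with list medians of -0.04 and 0.02 in K-ras, against -0.03 and -0.10 in NIH3T3. The leukocyte, epithelial, endothelial and fat cell lists had 0 called of 13, 14, 12 and 8 measured genes, and their median differences lay between -0.02 and 0.16. Single members differed far more. Log2 fold changes ran from -3.26 to 1.06 in the leukocyte list and from -5.34 to 0.94 in the epithelial list. They ran from -2.25 to 0.95 in the endothelial list and from -3.51 to 3.60 in the fat cell list. Lyz2, a lysozyme of myeloid cells, stood at -1.48 and -1.34 in K-ras, against 1.44 and 2.27 in NIH3T3 (-3.26 ± 0.74, adjusted p = 0.0502). Whether any marker was absent cannot be read from ratios.

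The genes with the largest fold changes were mostly not among the calls. Of the 55 genes that differed by at least 4 log2 units, 7 were called, and all 55 were called without the 6 arrays out of place. Those arrays were set apart by the most variable genes, so leaving them out narrows the spread of such genes by construction. The calls without them are therefore no independent evidence. The following were picked by size after their values were seen. Crabp1, which binds retinoic acid, stood at 3.24 and 3.24 in K-ras, against -5.87 and -6.25 in NIH3T3 (9.30 ± 2.79, adjusted p = 0.0937, or 5.66e-11 without the 6 arrays). Il33, an alarmin cytokine, stood at 3.03 and 2.64 in K-ras, against -6.21 and -5.52 in NIH3T3 (8.70 ± 3.03, adjusted p = 0.123). Krt14, a basal epithelial keratin, stood at -4.32 and -4.16 in K-ras, against 0.95 and 1.26 in NIH3T3 (-5.34 ± 2.13, adjusted p = 0.164). In these 3 genes the replicates of a line lay within 1 log2 unit, while the standard error pools groups elsewhere in the series that hold an array of each profile. Serpinb1a, a protease inhibitor (-5.81 ± 1.40), and Sema7a, a membrane-anchored semaphorin (5.44 ± 1.32), had the same pattern, with adjusted p of 0.0570 and 0.0586.

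The genes called at 72 h were also read at the earlier times at 25 mM. The 56 genes called higher had a median log2 fold change of 0.45 at 0 h (only arrays in place), 0.44 at 24 h, 0.95 at 48 h and 1.78 at 72 h. The 76 genes called lower had medians of -0.32, -0.43, -0.84 and -1.89 at the same times. At 0 h, here and below, only 1 K-ras array was in place. With both K-ras arrays the 0 h medians were 0.14 for the 56 genes and -0.16 for the 76. The course over time carries the choice of the genes, which used their size at 72 h and their spread over all 28 arrays. A gene with a lasting line difference had a wide spread through the 6 arrays out of place and was less easily called. Crabp1, which was not called, had 8.11 at 24 h, 9.10 at 48 h and 9.30 at 72 h. The 630 genes called higher without the 6 arrays had medians of 0.96, 0.95, 1.17 and 1.44 at the 4 times, and the 988 called lower -0.66, -0.62, -1.03 and -1.56. The second set was added after seeing the data, and all these medians are descriptions without a test.

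**Figure D4:**
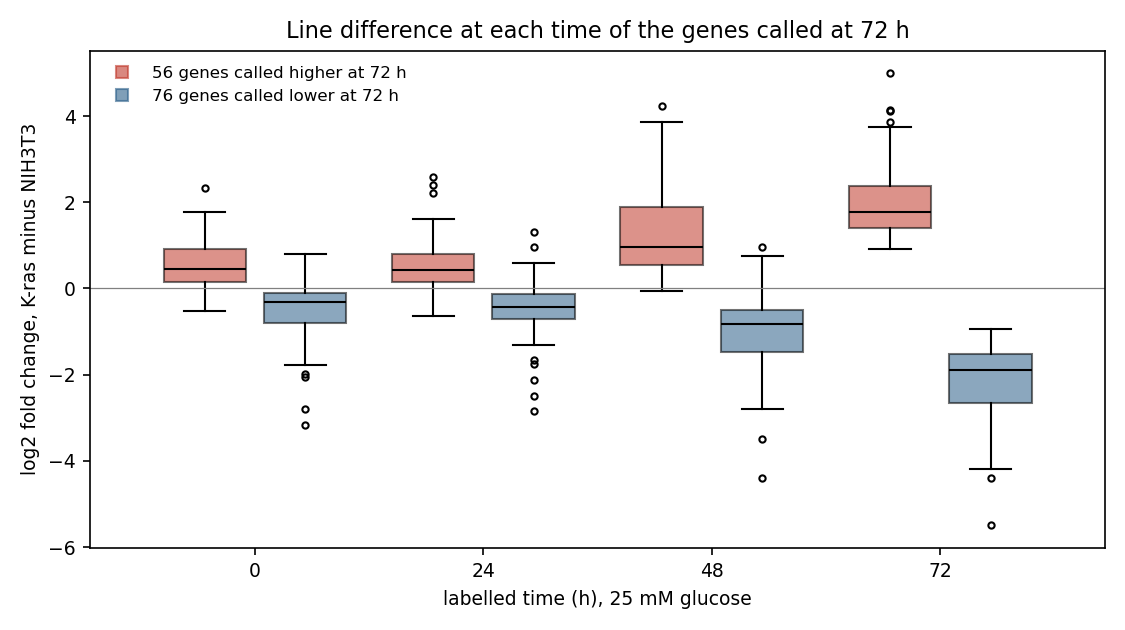
Log2 fold change (K-ras minus NIH3T3, vertical axis) at each labelled time at 25 mM glucose (horizontal axis, hours) of the 56 genes called higher (red) and the 76 called lower (blue) at 72 h. Boxes span the quartiles with the median as a line, whiskers reach the outermost genes not drawn as circles. The 0 h boxes leave out the K-ras array with the profile of the other line and rest on 1 K-ras array. Medians at 24 h were 0.44 and -0.43. The genes were chosen by their size at 72 h and their spread over all arrays, so the course carries that choice.

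The change of the line difference at 72 h, set against the mean of 24 and 48 h, passed the test in 1 of 18193 genes (0.0055%), with 2051 at an unadjusted p under 0.05, and in 4 without the 6 arrays out of place. The 1 gene was Ranbp3l, whose difference moved by -2.98 ± 0.41 (adjusted p = 0.0253). In NIH3T3 it stood at 0.53 and 0.69 at 24 h, 1.82 and 2.39 at 48 h and 4.51 and 4.42 at 72 h, while all 8 K-ras arrays at 25 mM lay between -0.30 and 0.24. It did not pass without replicate 1 of K-ras or either replicate of NIH3T3 at 72 h, replicate 2 of K-ras or either replicate of NIH3T3 at 24 h, or either replicate of K-ras at 48 h. Fosl1 followed the same course downwards without passing this test (3.49 ± 0.70, adjusted p = 0.395). It stood at 0.77 and 0.50 at 24 h, 0.04 and 0.13 at 48 h and 0.30 and 0.39 at 72 h in K-ras, against 0.14 and -0.45, -2.41 and -1.84, and -4.79 and -4.50 in NIH3T3. Dusp4, Phlda1 and Ereg lay within 1 log2 unit of the series median in every NIH3T3 array at 0 and 24 h. At 72 h they lay between -3.52 and -2.69 in the NIH3T3 arrays. Lum took another course. It stood at 2.07 and 1.79 at 24 h, 4.04 and 1.98 at 48 h and 4.16 and 2.84 at 72 h in K-ras, against values between -0.68 and -0.14 in the 8 NIH3T3 arrays at 25 mM.

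**Figure D5:**
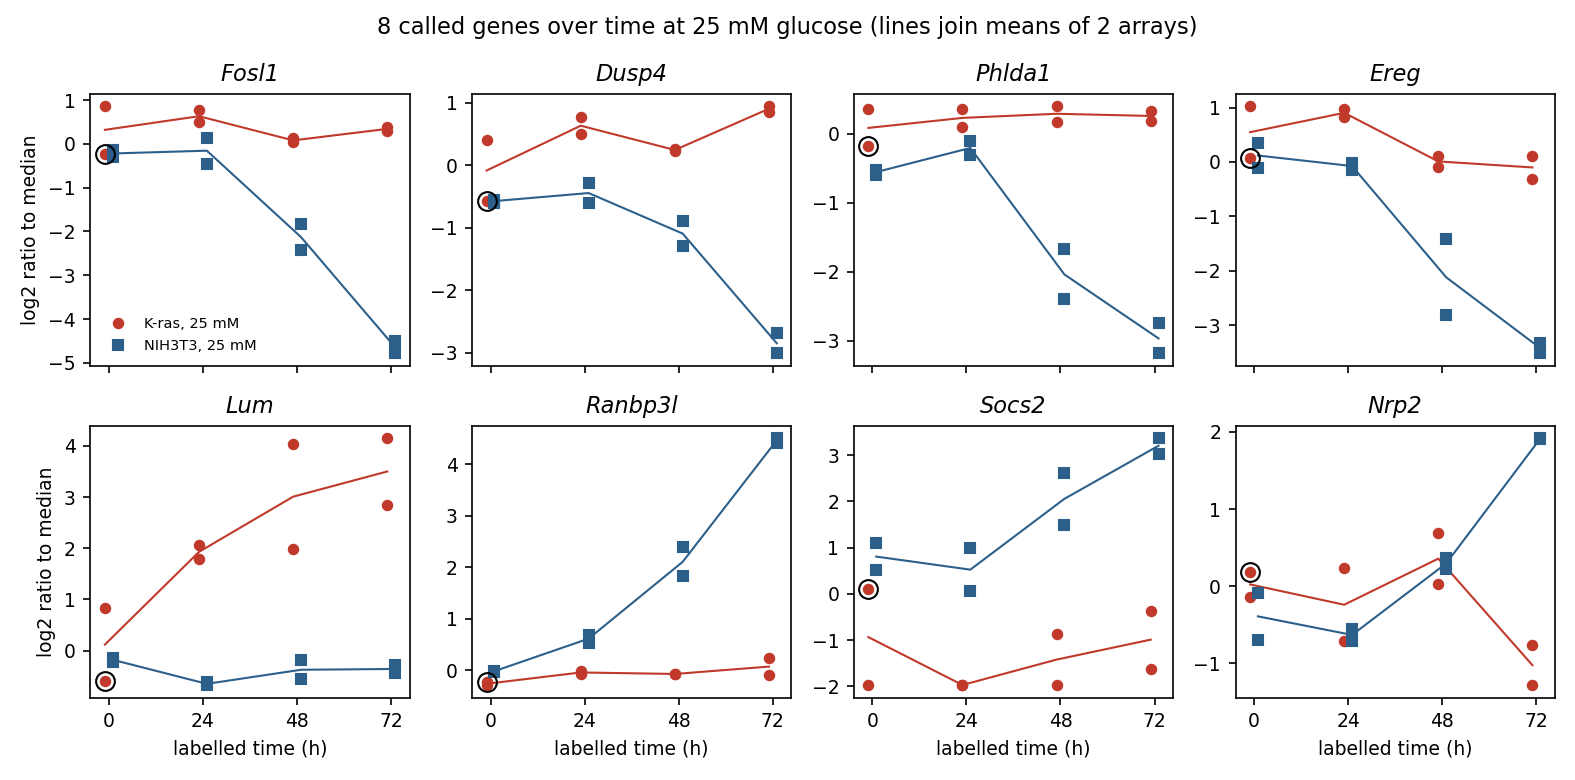
Log2 ratio to the series median (vertical axes) of 8 called genes at each labelled time at 25 mM glucose (horizontal axes, hours), with red circles for K-ras arrays, blue squares for NIH3T3 arrays and lines through the means of 2 arrays. The black ring marks the K-ras array at 0 h that has the profile of the other line. Fosl1, Dusp4, Phlda1 and Ereg are lowest in the NIH3T3 arrays at 72 h, Ranbp3l and Socs2 are highest there, and Lum is high in the K-ras arrays.

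The line difference at 72 h was also set against that at 1 mM glucose, to ask whether it depended on sugar. With limma 0 of 18193 genes passed (0%), with 2220 at an unadjusted p under 0.05. The Gapdh ratio, the measure of RNA integrity used above, set 1 array of this comparison apart. It was 2.09 in replicate 1 of K-ras at 1 mM and 72 h, the largest value of the series. Replicate 2 had 0.12, and the NIH3T3 arrays at 1 mM and 72 h had -0.12 and -0.19. The array enters the glucose differences of Fosl1, Ranbp3l and Lum below, and the effect of its RNA quality was not tested. Replicate 1 of K-ras at 1 mM and 72 h had the profile of NIH3T3, and without it and the other 5 arrays out of place the count was 128, with 88 higher and 40 lower. It was 1590 without replicate 2 of K-ras at 25 mM and 72 h, 108 without replicate 2 of K-ras at 1 mM and 72 h and 11 without replicate 2 of NIH3T3 at 1 mM and 72 h. Without replicate 2 of K-ras at 1 mM and 72 h, that group rests on replicate 1, which had the NIH3T3 profile. The count of 108 therefore cannot separate glucose from the line. Fosl1 at 1 mM stood at -1.90 and -0.24 in K-ras, against -1.53 and -1.71 in NIH3T3, and its line difference was larger at 25 mM by 4.45 ± 0.81 (adjusted p = 0.125). Ranbp3l at 1 mM stood at 0.76 and 0.10 in K-ras, against 1.84 and 1.76 in NIH3T3 (-3.03 ± 0.47 for 25 mM minus 1 mM, adjusted p = 0.0755). Lum at 1 mM stood at -0.16 and -0.04 in K-ras, against 0.08 and -0.07 in NIH3T3 (3.96 ± 1.06, adjusted p = 0.207). In Lum the array in place, replicate 2 of K-ras, also lay at the level of NIH3T3. Among genes called at 25 mM, the array in place gave medians of 0.52 for the 56 higher and -0.75 for the 76 lower at 1 mM.

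Where a gene had several probe sets, they did not always move together. Of the 132 called genes, 52 had a single probe set and 80 had several, and in 62 of the 80 all probe sets had the same sign. More than 1 probe set was called in 18 of the 80. Both probe sets were called for Fosl1, Ranbp3l, Errfi1, Kcnn4, Cped1 and S100a1. For others the call rests on 1 probe set, such as Cyp11a1, Fgd4 and Add2, whose other probe sets reached -0.34, -0.33 and -0.21. Add2, a cytoskeletal adducin (1.22 ± 0.26), and Sirpa, an inhibitory membrane receptor (-1.93 ± 0.43), were the called genes whose sign turned, to -0.21 and 0.35, when the first listed probe set stood for the gene.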

How the data were processed

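Total RNA was labelled by a one-cycle kit and hybridised to Affymetrix arrays, 1 per culture, per the labels' protocols. RMA is named per the submitters' processing notes, without a version. The authors deposited log2 values for 45101 probe sets on 28 arrays. Tested on the file, the median linear ratio over the 28 arrays was 1 within 0.001 in 45101 of 45101 probe sets, so the deposited log2 values are ratios to each probe set's median. Levels and signal over background are unknown, so a planned choice of the brightest probe set and a filter on dim genes could not be applied.

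Of the probe sets, 34945 had 1 gene symbol, 932 several and 9160 none, and 64 were controls. Each gene was represented by its probe set of largest SD, which left 18193 genes. Groups came from the titles. limma 3.58.1 in R 4.3.3 was fitted with 1 coefficient for each of 14 groups and 14 residual degrees of freedom. Benjamini-Hochberg adjustment was applied within each comparison, with no fold threshold. Tables were made with Python 3.11.15, pandas 2.3.3 and numpy 2.4.6, and figures with matplotlib 3.10.9. The number of arrays limits the precision: with 2 against 2 an exact permutation test could not go below a two-sided p of 0.333, so none was used.

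Tested on simulated data (18193 genes, 200 of them changed), the line difference fit found 34% of the genes shifted by 1 log2 unit and 78% of those shifted by 2, and 7 of its 119 calls were false. For the change with time the shares were 23% and 65%, and for the change with glucose 6% and 66%. The simulated noise had the same SD in every array, while replicate 1 of K-ras at 72 h had a wider spread. These rates therefore need not hold for the arrays compared. Deviations from the group mean correlated at r = 0.0941 between arrays with the same replicate number. With 2 arrays a group the second pair mirrors the first. Whether replicate numbers pair the samples therefore cannot be decided, and no pairing was used in the main fit.

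The genes and the 45 lists, of which 1042 of 1107 entries were measured, were chosen with earlier results of these data known. Genes were named by rule: the 20 largest rises and 20 largest falls among called genes, up to 6 called and 3 uncalled members of a list, genes fixed by name and called genes with a textbook role. Clone symbols were not named. Alternatives were another normalisation, filter, probe set rule or set of arrays, array weights, robust moderation, a replicate block and the bioC split.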

Additional observations from a re-analysis of the deposited data

Results flagged for a closer look

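Ranbp3l, which encodes a Ran-binding protein, was the single gene whose line difference at 72 h differed from its mean at 24 and 48 h by the test of that difference (-2.98 ± 0.41, adjusted p = 0.0253, K-ras minus NIH3T3, 25 mM glucose). Both of its probe sets were called at 72 h, with log2 fold changes of -4.40 and -1.84.

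Probe sets with no gene symbol or with several symbols were outside the gene tests. Of these 10092 probe sets, 33 were called for the line difference at 72 h by the same limma fit, 8 higher and 25 lower in K-ras. They are not named here.

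The hybridisation control bioC, which is added to the sample and is not made by the cells, was higher by 3.09 on the log2 scale in K-ras than in NIH3T3 at 25 mM and 72 h. It read 2.94 and -0.14 in K-ras, against -2.12 and -1.27 in NIH3T3. The companion controls bioB and bioD read 3.01 and -0.60, and 1.27 and -0.43, in K-ras, against -1.01 and -0.05, and -0.24 and -0.03, in NIH3T3. Its part in the line difference was not tested.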

How the results depend on the processing

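The count of 132 genes for the line difference at 72 h was 5 after quantile normalisation, 316 among genes with an SD above the median, 252 with the mean of all probe sets of a gene, 1158 with only the 16 arrays at 25 mM, 1618 without the 6 arrays out of place, 414 with only the 4 arrays compared, 2 with array weights and 1 with the bioC split as a block. With the replicate block it was 39. Of settings chosen after seeing the data, scaling each array to the same interquartile range gave 39 and testing all named probe sets gave 246 of 34945. Leaving out 1 of the 4 arrays gave 2 to 3014. The first listed probe set (119), robust moderation (130) and a fold threshold of 1 log2 unit (130) gave counts within 1.5 times. Of the 132 genes, 130 kept their sign in the 16 alternatives fitted to single genes, and 46 were called with only the 4 arrays compared. The kept sign is weak evidence, because several alternatives reuse the same means of the 4 arrays. Since none of the 132 genes overlapped between the lines, leaving out 1 of the 4 arrays could not turn a sign either. Add2 and Sirpa turned, to -0.21 and 0.35, with the first listed probe set.

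The count of 1 for the change with time was 0 after quantile normalisation, 6 with only the arrays at 25 mM, 4 without the arrays out of place, 2 with the bioC block and 3 with 0 h added to the earlier times. Leaving out 1 array gave 0 to 1879. The count of 0 for the change with glucose was 1 with the mean of probe sets and 128 without the arrays out of place, and 0 to 1590 when 1 array was left out. The replicate block left these counts at 1 and 0. The fits without an array at 72 h assume that the lone array left varies like the other groups. With the bioC split as a block, the medians of 23 of the 45 lists moved by more than the spread between replicates. This block also takes up line difference, and the cause was not tested. Signal over background is unknown, so a ratio near background cannot be told from a measured one.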
